A study of Mus musculus with 6 samples.

Results

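The let-7 family was measured in bone marrow-derived macrophages that had lost Dicer and in macrophages that had kept it. The family consists here of the guide strands let-7a, let-7b, let-7c, let-7d, let-7e, let-7f, let-7g, let-7i and miR-98, which were found by assay name. They make up 9 of the 596 miRNA assays of the panel, and all 9 lay in the first of its 2 blocks of rows (block A, 335 miRNA assays), with 0 members in the second (block B, 261 miRNA assays). Marrow came from 3 male LysM-Cre/Dicerflox/flox/Apoe–/– mice (KO) and 3 male LysM-Cre/Dicerwt/wt/Apoe–/– mice (WT), 6 to 8 weeks old. Mice of both genotypes lacked Apoe, a lipoprotein ligand, and carried LysM-Cre, a recombinase driven by a promoter that is active in the myeloid lineage. Femoral marrow was cultured over 7 days with supernatant of L929 cells, which secrete macrophage colony-stimulating factor, and total RNA was assayed by TaqMan RT-PCR. The comparison asked how far the family depends on Dicer in these cells. No assay of Dicer itself was among the measurements, so the genotype could not be checked at its own transcript, and the share of cells that had deleted Dicer was not measured.

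let-7 miRNAs are abundant in differentiated cells, where they repress growth and stem cell genes such as Ras and Hmga2. Each is cut from a hairpin precursor, first by Drosha in the nucleus and then by Dicer in the cytoplasm, which leaves a guide strand and a passenger strand. The guide finds its targets mainly through its seed, bases 2 to 8 from the 5′ end, and the protein Lin28 can block the maturation of the family in undifferentiated cells. In macrophages let-7 miRNAs are known as repressors of cytokine messages such as that of interleukin 6.

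All 9 guides matched a mature sequence of RefSeq (mouse build GRCm38.p6). They are shown because they carry the same seed, given in capitals, and differ from one another only outside it.
let-7a: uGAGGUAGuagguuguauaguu
let-7b: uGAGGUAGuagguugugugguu
let-7c: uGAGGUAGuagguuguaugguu
let-7d: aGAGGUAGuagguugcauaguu
let-7e: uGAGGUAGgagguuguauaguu
let-7f: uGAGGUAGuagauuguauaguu
let-7g: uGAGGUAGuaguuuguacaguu
let-7i: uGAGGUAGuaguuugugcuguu
miR-98: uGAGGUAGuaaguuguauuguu
Each is 22 bases long. Counted from 1 at the 5′ end, let-7c differs from let-7a by A19G, let-7e by U9G and let-7f by G12A. let-7b differs by A17G and A19G, let-7d by U1A and U16C, let-7g by G12U and U18C, and miR-98 by G11A and A19U. let-7i is the farthest from let-7a, with 81.8% of its bases identical and the changes G12U, A17G, U18C and A19U. How far an assay also reads a relative that differs from its target by 1 or 2 bases was not tested.

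The guides come from 12 hairpins. let-7a, let-7f and let-7d share a stretch of chromosome 13, where the let-7a-1 and let-7f-1 hairpins lie 261 bases apart and let-7d lies 1714 bases beyond let-7f-1. let-7a has a further hairpin on chromosome 9, 5211 bases from that of miR-100, within the noncoding gene Mir100hg. let-7b and the let-7c-2 hairpin lie 621 bases apart on chromosome 15, and let-7c-1 lies 656 bases from miR-99a on chromosome 16. let-7e lies between miR-99b and miR-125a on chromosome 17, at 94 and 367 bases. let-7g lies inside the protein-coding gene Wdr82 on chromosome 9, and let-7i lies on chromosome 10. Neither has another miRNA hairpin within 10000 bases. let-7f-2 and miR-98 lie 785 bases apart on the same strand of chromosome X, inside Huwe1, a gene for a ubiquitin ligase.

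The miR-98 and let-7f-2 hairpins are shown as neighbours of which miR-98 was assayed alone and let-7f together with its identical copy from chromosome 13, and the let-7g hairpin because both of its strands were assayed. Capitals mark the guide strand and, for let-7g, also the assayed passenger strand.
Mir98, chrX:151913214-151913321, plus strand: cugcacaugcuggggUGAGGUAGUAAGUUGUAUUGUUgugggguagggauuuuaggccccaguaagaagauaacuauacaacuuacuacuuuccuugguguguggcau
Mirlet7f-2, chrX:151912346-151912428, plus strand: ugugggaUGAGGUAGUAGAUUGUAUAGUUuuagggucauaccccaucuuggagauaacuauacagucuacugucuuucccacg
Mirlet7g, chr9:106178840-106178927, plus strand: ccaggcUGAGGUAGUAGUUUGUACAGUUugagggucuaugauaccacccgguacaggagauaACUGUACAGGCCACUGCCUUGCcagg

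The deposited threshold cycle (Ct) falls by 1 for each doubling of template, and wells without amplification are listed at 40. Abundance is given below on a log2 scale as the mean Ct of 5 control RNAs (U6, U87, Y1, snoRNA135 and snoRNA202) of the same block and sample minus the Ct of the miRNA, after Ct values of 35 or more were set to 35. The block A controls averaged Ct 20.8 ± 1.82 in KO and 20.2 ± 1.02 in WT (SD, n = 3 each; exact permutation p = 0.8, two-sided, where 0.1 is the smallest possible). KO replicate 1 had the latest controls, at Ct 22.8, against 19.1 to 21.1 in the other 5 samples, and it also held 13 of the 14 single KO wells listed at Ct 40 beside 2 KO wells under Ct 30. All 7 myeloid marker miRNAs, among them miR-223 and miR-142-3p, were below Ct 35 in all 6 samples, and 4 of them were called lower. Of the block A assays below Ct 35 in all 6 samples, 52.9% were called lower. Among the other markers, the lymphocyte miR-181a was called lower, and 0 epithelial or stromal ones were called. Markers of other cells were also detected: 3 of the 4 epithelial markers (miR-200b, miR-200c and miR-141) and both lymphocyte markers in the panel were below Ct 35 in all 6 samples, with miR-205, the other epithelial one, at Ct 40 throughout. The summed epithelial level was -5.53, -4.78 and -4.48 in KO and -4.18, -3.5 and -3.78 in WT, and the summed lymphocyte level was -4.87, -4.01 and -5.12 in KO and -2.38, -2.73 and -3.02 in WT. The endothelial miR-126-3p, the neural miR-124 and miR-9, the erythroid miR-451 and the muscle miR-133a were each below Ct 35 in some samples, while the muscle miR-1 and the liver miR-122 were at Ct 40 in all 6. The 4 stromal markers were detected in every sample. Their summed level was between -4.37 and -3.34 in KO and was -0.70, -1.30 and -7.62 in WT replicates 1, 2 and 3, and the part of these other cell markers in the results was not tested. In these bulk cultures, fewer cells of a type and less RNA per cell cannot be told apart.

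The let-7 guides were less abundant in KO than in WT macrophages. With limma and an adjusted p under 0.05, 7 of the 8 members that amplified in all samples fell and 0 rose. Of the 140 block A assays that amplified in all samples 52.9% were lower, as were 46.9% of the 179 tested in block A and 37.2% of the 282 tested in the whole panel, of which 0.355% were higher. miR-98 met the filter through WT alone, with KO values at the ceiling, and is not counted here. With the replicate number as a block the same 7 amplified members were lower, beside 41.8% of the tested assays. The 8 members that amplified in every sample were 3.48-fold to 7.49-fold lower, and miR-98 amplified in WT macrophages alone. The median difference over those 8 was -2.33 on the log2 scale, beside -1.98 over the block A assays that amplified in all samples and -1.91 over all tested assays. For each of the 8 amplified members the highest KO sample lay below the lowest WT sample. miR-98 is left out here, since its KO values are the ceiling. The same held for 59.9% of the 282 tested assays of both blocks, assays with wells at the ceiling included. That set is not matched to the 8 members, which lie in block A and amplified throughout. Lower assays made up 46.9% of those tested in block A and 20.4% in block B. A matched share is not given, so the separation is not read as a trait of the family. A negative difference was found for 87.6% of the tested assays. The calls lay close to the threshold: without WT replicate 1, 2 or 3 or KO replicate 2, none of the 8 amplified members passed, and the number of lower assays in the whole panel was 2, 2, 2 and 3. The same 7 passed when KO replicate 1 was left out, and without KO replicate 3 let-7b did not.

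**Figure D1:**
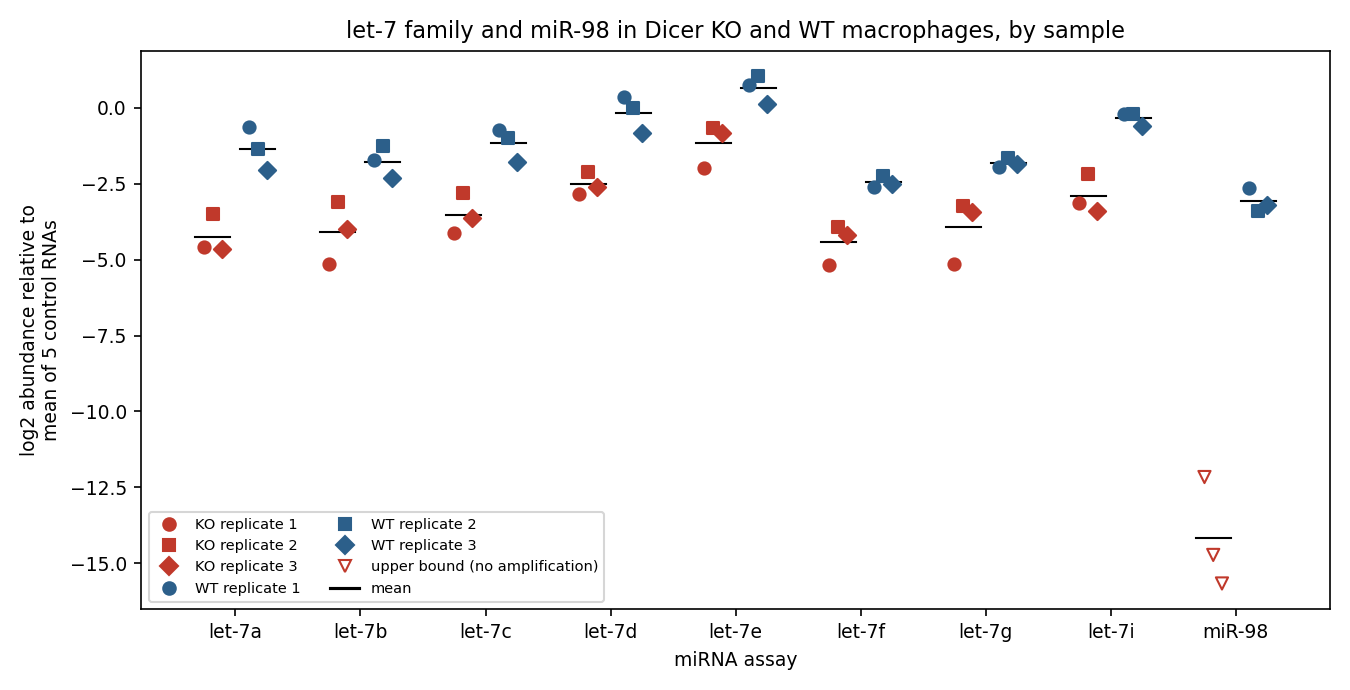
Abundance of the 9 guides in each sample, on the vertical axis as log2 relative to the mean of 5 control RNAs, with KO samples left of WT samples, a symbol per replicate and a bar at the group mean. In the 8 amplified assays the KO symbols lie below the WT symbols. Those of miR-98 also do, but its open triangles are upper bounds from wells without amplification.

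let-7a, let-7f and let-7d are encoded together on chromosome 13, and let-7a also on chromosome 9. Of these members let-7a had the largest difference, with no test between members. let-7a stood at -4.59, -3.49 and -4.66 in KO replicates 1, 2 and 3, against -0.63, -1.37 and -2.04 in WT replicates 1, 2 and 3. The groups were apart by 1.46 between the highest KO and the lowest WT sample, and let-7a was 7.49-fold lower in KO, a log2 difference of -2.90 ± 0.62 (SE; adjusted p = 0.0312). let-7f, also encoded beside miR-98, stood at -5.18, -3.92 and -4.19 in KO and at -2.60, -2.23 and -2.50 in WT. Its WT samples lay within 0.37 of each other, and it was 3.96-fold lower in KO (-1.99 ± 0.55; adjusted p = 0.034). let-7d stood at -2.83, -2.10 and -2.61 in KO and at 0.36, 0.01 and -0.84 in WT. Its KO samples were the closest of the family, within 0.73 of each other, and it was 5.13-fold lower (-2.36 ± 0.55; adjusted p = 0.0312).

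let-7b and let-7c, which have neighbouring hairpins on chromosome 15, changed by similar amounts, but so did let-7d (-2.36) of chromosome 13. let-7c also has a hairpin on chromosome 16. let-7b stood at -5.14, -3.09 and -4.0 in KO and at -1.73, -1.27 and -2.30 in WT. Its KO samples spread over 2.05, with replicate 1 the lowest, and it was 4.96-fold lower (-2.31 ± 0.68; adjusted p = 0.0402), but it did not pass without KO replicate 3 (adjusted p = 0.0566). let-7c stood at -4.12, -2.81 and -3.63 in KO and at -0.72, -1.0 and -1.78 in WT, without overlap. It was 5.11-fold lower (-2.35 ± 0.59; adjusted p = 0.0321).

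let-7g and let-7i are encoded away from the other members. let-7g stood at -5.16, -3.23 and -3.43 in KO, where replicate 1 was apart from the others, and at -1.94, -1.66 and -1.86 in WT, within 0.28 of each other. It was 4.35-fold lower (-2.12 ± 0.65; adjusted p = 0.0456), but did not pass with wells without amplification kept at Ct 40 (adjusted p = 0.054). let-7i stood at -3.12, -2.18 and -3.40 in KO and at -0.19, -0.22 and -0.58 in WT. With 1.60 between the highest KO and the lowest WT sample, its groups were the farthest apart of the 8 amplified members, and it was 5.94-fold lower (-2.57 ± 0.54; adjusted p = 0.0312).

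let-7e, which lies between miR-99b and miR-125a, did not pass the test. It stood at -1.97, -0.65 and -0.84 in KO and at 0.76, 1.05 and 0.12 in WT, with 0.77 between the groups. The difference was -1.80 ± 0.59 (SE, n = 3 per group; adjusted p = 0.0504, and 0.0535 with the replicate number as a block). It did pass under 4 alternatives: with U6, snoRNA135 and snoRNA202 as the controls (-1.73, adjusted p = 0.0482), with a ceiling of Ct 32 (adjusted p = 0.036), with the floor set after scaling (adjusted p = 0.0362) and among assays detected in all 6 samples (adjusted p = 0.0261).

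miR-98 stood apart from the other members. Its Ct was 40 in all 3 KO samples and 23.7, 23.9 and 22.3 in WT replicates 1, 2 and 3. let-7f, encoded beside miR-98 on chromosome X and also on chromosome 13, amplified at Ct 28.0, 24.2 and 23.5 in KO and at Ct 23.7, 22.8 and 21.6 in WT. With the ceiling of Ct 35 taken as the limit of detection, miR-98 was at least 2209-fold lower in KO (log2 -11.11 or lower). No p is given for it, since its KO values are the ceiling and it met the filter through WT alone, and a floor set after scaling gave -9.09, or -8.11 with a ceiling of Ct 32. Leaving out KO replicate 1 gave a bound of -12.12 and leaving out KO replicate 3 one of -10.37. By size of fall the 8 amplified members ranked between 47 and 155 of the 282 tested assays. Of the 277 assays detected in every WT culture, 3.61% were detected in none of the KO cultures. Of these 277 assays, 5 were at Ct 40 in all 3 KO samples, miR-98 and miR-1897-3p among them. The WT Ct of miR-1897-3p was 28.0, 25.8 and 25.5 in replicates 1, 2 and 3. Among the 145 assays with a mean WT Ct under 26, miR-98 was the 1 assay without amplification in all KO samples. Another 10 of the 145 had a single KO well at Ct 40, in KO replicate 1 for 9 of them and in KO replicate 3 for 1. Whether the miR-98 wells failed was not tested.

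**Figure D2:**
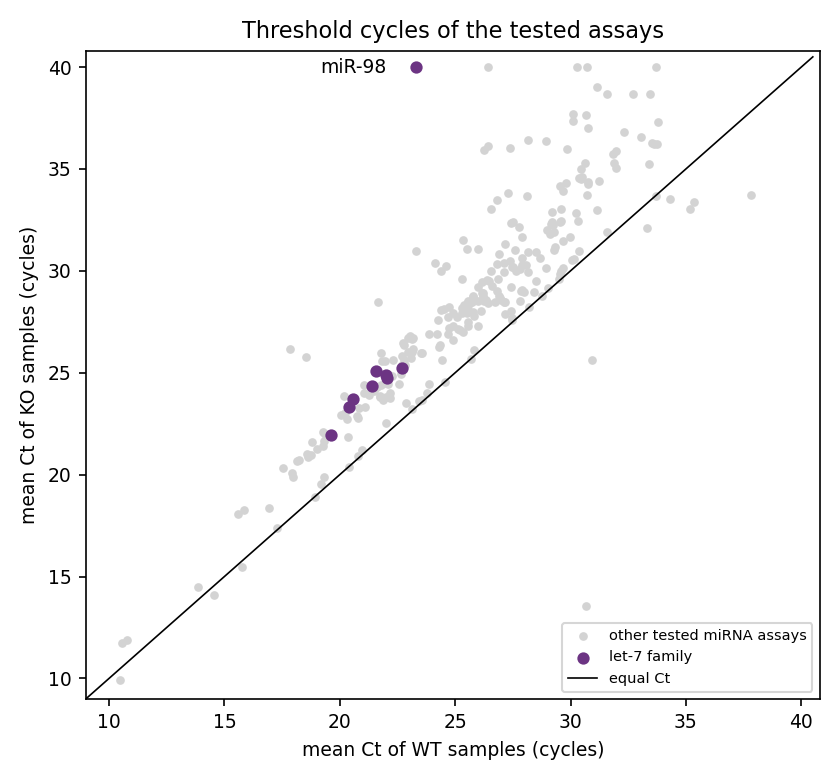
Mean Ct of the 3 KO samples (vertical axis) against the mean Ct of the 3 WT samples (horizontal axis) for the 282 tested assays, wells without amplification entering at 40, with the line of equal Ct. The 8 amplified let-7 members lie in the band of the other assays above the line. At Ct 40 in KO lie 5 assays, and miR-98 is the 1 of them with a mean WT Ct under 26.

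The order of the amplified members was largely kept. The levels of different assays depend also on how well each assay amplifies, so their order describes these assays. In KO macrophages let-7e was highest at -1.16 ± 0.71, followed by let-7d (-2.52 ± 0.37), let-7i (-2.90 ± 0.64), let-7c (-3.52 ± 0.66), let-7g (-3.94 ± 1.06), let-7b (-4.08 ± 1.03), let-7a (-4.25 ± 0.65) and let-7f (-4.43 ± 0.67; SD, n = 3). The first 4 kept this order in all 3 KO samples, and none of the last 4 was above its next neighbour in all 3. In WT macrophages let-7e was also highest at 0.64 ± 0.48, followed by let-7d (-0.16 ± 0.61), let-7i (-0.33 ± 0.22), let-7c (-1.16 ± 0.55), let-7a (-1.34 ± 0.70), let-7b (-1.77 ± 0.52), let-7g (-1.82 ± 0.14), let-7f (-2.44 ± 0.19) and miR-98 (-3.08 ± 0.39). In WT the neighbours let-7d and let-7i, let-7c and let-7a, let-7a and let-7b, and let-7b and let-7g did not keep their order in every sample. let-7a was the seventh in KO and the fifth in WT. let-7e minus let-7a, the 2 amplified members with the smallest and the largest change and chosen for that, was 2.62, 2.84 and 3.82 in KO and 1.39, 2.41 and 2.15 in WT, without overlap and with no test.

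The 3 KO cultures differed in how far the family was down. The median of the 8 amplified members stood at -4.35, -2.95 and -3.53 in KO replicates 1, 2 and 3, and at -0.67, -1.13 and -1.82 in WT replicates 1, 2 and 3. Set against the WT mean, the KO medians were 8.84-fold, 3.34-fold and 5.00-fold lower. Over the 179 tested assays of block A the same measure was 6.76-fold, 4.12-fold and 3.32-fold lower. Unlike the 8 members, these include assays with wells at the ceiling. In KO replicate 3 the family lay further down than in KO replicate 2, while the tested block A assays lay further down in KO replicate 2. The 2 sets are unlike in detection, and this difference was not tested. let-7a and let-7i had lower values in KO replicate 3 than in KO replicate 1, whereas the other 6 amplified members were lowest in KO replicate 1. Without KO replicate 1 the differences of the 8 members ranged from -2.73 for let-7a to -1.39 for let-7e.

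The size of the change depends on what it is measured against. With the global mean of the miRNA assays as the reference, taken per block over assays detected in all 6 samples, the median of all tested assays was -0.20 and 0.709% were lower. All members lie in block A, so this reference moved each of them by the same 1.89. let-7a was then at -1.02, let-7f at -0.10 and let-7e at 0.09, and none of the 8 amplified members passed the test. Relative to the control RNAs, 7 of the 8 amplified members lay below the median of all tested assays and 6 below that of block A, which is a description of these 6 samples.

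**Figure D3:**
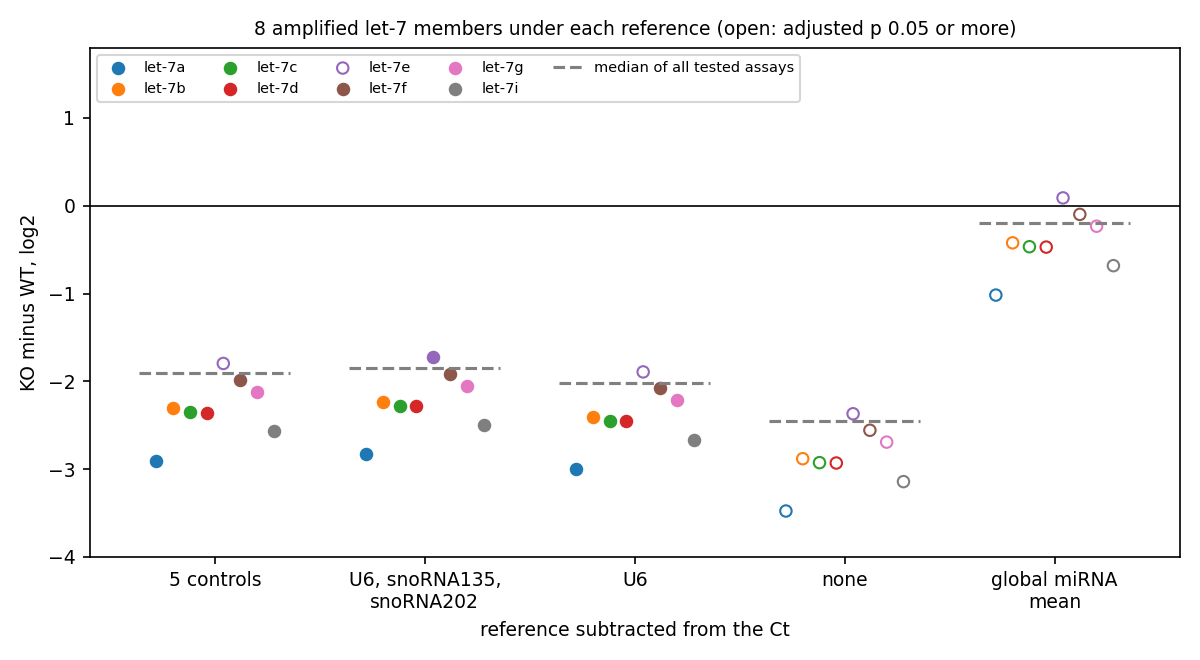
KO minus WT difference (log2, vertical axis) of the 8 amplified members under 5 references, with filled symbols for an adjusted p under 0.05 and a dashed line at the median of all tested assays. A change of reference moves all 8 by the same amount, and with the global miRNA mean let-7e lies at 0.09 and the others between -1.02 and -0.10.

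Passenger strands of let-7 hairpins, which are usually degraded after the guide is loaded, were assayed in block B. Of 4 in the panel, let-7a* was detected in all 6 samples, let-7c-1* and let-7g* met the filter through WT alone, and let-7d* was not tested. Among the 103 tested assays of block B 20.4% were lower, with a median of -1.15. let-7a* had Ct values of 33.0, 28.8 and 28.0 in KO and 28.2, 27.0 and 26.1 in WT. It was 5.26-fold lower relative to the block B controls (-2.40 ± 0.66, SE; adjusted p = 0.034), without overlap between the groups. let-7g*, cut from the hairpin printed above, had Ct values of 40, 31.5 and 31.0 in KO and 30.4, 29.1 and 29.0 in WT. If the KO replicate 1 well is taken as an absence, let-7g* was at least 5.82-fold lower (-2.54), beside 4.35-fold for its guide let-7g. No p is given for this value, since let-7g* entered the test through WT alone and 1 of its KO values is the ceiling. With a ceiling of Ct 32 the difference of let-7g* was -1.54 and did not pass (adjusted p = 0.102), nor did it with wells without amplification kept at Ct 40 (-4.21; adjusted p = 0.0878). let-7c-1* had Ct values of 36.1, 28.3 and 28.1 in KO and 28.6, 26.7 and 25.4 in WT, a difference of -3.11 that did not pass (adjusted p = 0.0632). It passed when KO replicate 1 was left out (-1.79; adjusted p = 0.0419), when KO replicate 3 was (-3.82; adjusted p = 0.0463) and with a ceiling of Ct 32 (-2.11; adjusted p = 0.0227). These calls are also of an assay that met the filter through WT alone. let-7d* was at Ct 40 in 5 samples and at 35.6 in WT replicate 3, and did not meet the filter.

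miR-100, miR-99a, miR-99b and miR-125a are encoded within 5211 bases of let-7a-2, let-7c-1 or let-7e, and the hairpins of miR-125b lie 45114 bases from let-7a-2 and 46522 bases from let-7c-1. Of these 5 guides, all detected in all 6 samples, 3 fell and 0 rose, with a median of -2.04. Beside them, 52.9% of the block A assays that amplified in all samples were lower, with a median of -1.98. In the deposited Ct table miR-100 was 4.11-fold lower (adjusted p = 0.0312), although the deposited ratios list other values under that name. By the same fit miR-99a was 3.65-fold lower (adjusted p = 0.034) and miR-99b 9.13-fold (adjusted p = 0.0487). miR-99b varied most of these 3, at -7.77, -4.21 and -5.68 in KO and -3.30, -1.42 and -3.37 in WT, and it did not pass without KO replicate 1 (-2.25; adjusted p = 0.0915) or KO replicate 3 (adjusted p = 0.0621), nor with the floor set after scaling (adjusted p = 0.0675) or wells without amplification kept at Ct 40 (adjusted p = 0.0638). miR-99a did not pass without KO replicate 3 (adjusted p = 0.0583). miR-125a-5p, also a neighbour of let-7e, stood at -9.23, -4.25 and -3.99 in KO and at -4.13, -1.69 and -2.88 in WT, which overlapped (-2.92; adjusted p = 0.143). miR-125b-5p was at -1.22 (adjusted p = 0.128), and with the global mean as reference it turned to 0.67 and miR-99a to 0.02. Without any 1 WT sample or KO replicate 2, 0 of these passenger strands and neighbours passed.

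**Figure D4:**
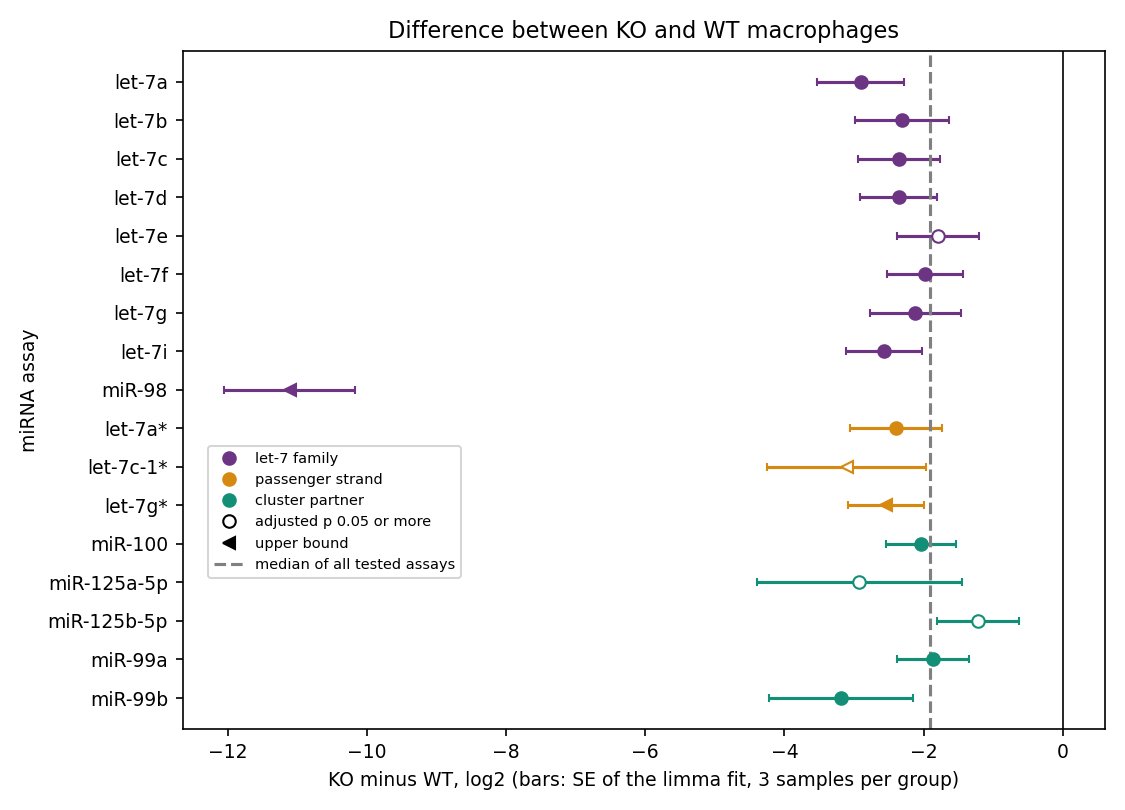
KO minus WT difference (log2, horizontal axis) with its SE for the 9 members, 3 passenger strands and 5 cluster partners, filled where the adjusted p was under 0.05. Most lie near the dashed line at -1.91, the median of all tested assays, and miR-98 lies at -11.11. The values of miR-98, let-7c-1* and let-7g* are upper bounds. The fill of miR-98 and let-7g* comes from a test that they entered through WT alone.

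Outside the family, 1 other assay of the panel has the same seed in RefSeq, and miR-202-3p shares the first 6 bases of that seed. Both are shown with bases 2 to 8 in capitals.
miR-1961: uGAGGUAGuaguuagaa
miR-202-3p: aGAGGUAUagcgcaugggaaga
miR-1961, encoded on chromosome 5, was above Ct 35 in all 6 samples. miR-202-3p, encoded on chromosome 7, was at Ct 40 in all 3 KO samples and in WT replicate 3, and at Ct 32 and 30.9 in WT replicates 1 and 2. Neither met the filter for a test.

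The non-members whose pattern over the 6 samples was most like that of the family were miR-7a, miR-27b, miR-130b, miR-23b and miR-532-3p. Likeness was the mean absolute difference over the 6 samples between an assay and the median of the 8 amplified members, each set to its WT mean, among 193 non-members detected in all samples. It was 0.23 for miR-7a, 0.24 for miR-27b, 0.25 for miR-130b and miR-23b and 0.26 for miR-532-3p, while the members themselves ranged from 0.12 for let-7c to 0.48 for let-7a. The members set the median they are measured against, so the 2 sets of values are not directly comparable. The family pattern was -2.87, -1.56 and -2.34 in KO replicates 1, 2 and 3 and 0.13, 0.16 and -0.53 in WT replicates 1, 2 and 3. All 5 lay in block A, and their differences ran from -2.14 for miR-27b to -1.89 for miR-23b. They share the controls of their block with the family, which is part of any likeness.

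The authors' deposited table of folds gives KO over WT as a ratio of 0.138 for let-7a, 0.188 for let-7i and 0.311 for let-7e. For miR-98 the authors' deposited table gives 2.56e-05, a value into which wells at Ct 40 entered as numbers.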

How the data were processed

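TaqMan RT-PCR was run on total RNA of 3 KO and 3 WT cultures. Per the labels' protocols, the mirVana kit was used for isolation, and TaqMan reagents for reverse transcription and preamplification; instrument and software are not given in the sources used here. Deposited were the authors' Ct scores for 608 rows, relative quantities (a ratio to WT, per the file headers) and a fold of KO over WT. Tests were run on the Ct table. Its 2 blocks were each scaled to the mean Ct of their 5 controls, after a ceiling of Ct 35.

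Tests covered the 282 assays with a Ct under the ceiling throughout KO, throughout WT or in both. The filter was met by all 9 members, miR-98 through WT alone. All adjusted p values are two-sided, from lmFit and eBayes of limma 3.58.1 (R 4.3.3), by Benjamini-Hochberg over the 282 assays, or over 246 with a ceiling of Ct 32, 201 with detection in all 6 samples and 596 without the filter. For the control Ct values, scipy 1.17.1 gave an exact permutation p. The labels call the replicates biological. The number of samples limits the precision, and the controls are the only measure of RNA input.

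KO and WT samples of equal number had correlated deviations from the group means over the tested assays (0.23, 0.28 and 0.27). The pairing by number rests on this check, not on a statement in the labels. The fit with a replicate block is given for the counts of lower assays and for let-7e. In 17 alternatives the reference, the ceiling, the filter, the block, the source table or a sample was changed; the tested set stayed that of 6 samples when a sample was left out. The members and lists (passenger strands, cluster partners, cell type markers) were chosen with earlier results of these data known. Named were all members and list assays in the panel, and the 5 assays most like the family. Sequences and positions are from RefSeq, build GRCm38.p6.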

Additional observations from a re-analysis of the deposited data

How the results depend on the processing

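All 9 members kept a negative difference under the 17 alternatives except let-7e, which was at 0.0895 with the global mean as reference; miR-98 gave no value where detection in all 6 samples was required. miR-98, which met the filter through WT alone, is left out of the counts of lower members below. Without a reference, with the global mean as reference and without the filter on late assays, none of the 8 amplified members was lower. In each of these alternatives 2 assays of the panel were lower, miR-98 among them. The median over the family was -0.47 with the global mean, beside -2.35, since that reference moves every member by 1.89. The number of higher assays was 2 with U6 alone and with a ceiling of Ct 32, and 0 without a reference, beside 1. Leaving out 1 sample gave from none to 7 lower amplified members, 2 to 112 lower assays, 1 to 2 higher assays and a family median of -2.71 to -2.06. The median of all tested assays was -2.45 without a reference, -0.20 with the global mean and 0.27 without the filter. miR-99a turned to 0.0202 and miR-125b-5p to 0.67 with the global mean, and miR-100 to 0.64 in the authors' deposited ratios. Those ratios list under miR-100 the values of an assay without amplification in any sample, as described below. The cause of the other changes was not tested, except that the alternative without a filter tested 596 assays. The control Ct difference, KO minus WT, was 0.57 in block A and 0.43 in block B, and leaving out 1 sample gave -0.44 to 1.31 and -0.53 to 1.07. With the replicate block 7 of the 8 amplified members and 118 assays (41.8%) were lower. The block changed the call of no member, passenger strand or cluster partner. In the authors' deposited ratios let-7a, let-7c, let-7d, let-7f and let-7i passed by limma. let-7b (adjusted p = 0.0512), let-7g (0.0514) and let-7e (0.0559) did not.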

Other observations

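The deposited Ct and ratio tables do not pair names and values in the same way throughout. The ratios were recomputed from the Ct values with U6, snoRNA135 and snoRNA202 as controls and compared row by row with a tolerance of 0.01 on the log2 scale. Of 596 rows, 33 differed, 6 in block A and 27 in block B, and each of the 33 matched the Ct values listed under another name, 25 of them those of a single other assay. The 9 let-7 family members and the 4 passenger strands had the same values under the same names in both tables. Of the cluster partners, miR-100 was affected: the ratios listed for the muscle miRNA miR-1 matched the Ct values of miR-100, and those listed for miR-100 matched an assay without amplification in any sample, as miR-1 was in the Ct table. The authors' deposited table of folds accordingly gives 2.39 for miR-100 and 0.252 for miR-1, whereas miR-100 was 4.11-fold lower in KO by its Ct values. In block A the names miR-21 and miR-210, and miR-32 and miR-320, were also exchanged between the tables. These names were chosen after their values were seen. Which table holds the right names was not tested.

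Single wells without amplification beside early wells of the same group were found in 14 assays in KO and in 2 assays in WT, counting assays whose other 2 wells lay under Ct 30. In KO 13 of the 14 were in replicate 1 and 1 in replicate 3.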
